A study of Danio rerio with 6 samples.

Results

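Cells sorted from injured larval zebrafish muscle at 2 days post injury (dpi) were compared with cells sorted at 1 dpi. The 2 dpi group was 1 library from larvae 6 days post fertilisation, and the 1 dpi group was 2 libraries from larvae 5 days post fertilisation. All larvae were of the TL strain and carried Tg(mpeg1:mCherry), which places the red fluorescent protein mCherry under control of the macrophage gene mpeg1. All were raised in PTU, which blocks pigment formation, and were wounded 4 days post fertilisation by a needle puncture of the dorsal myotome. The injured region was dissected, and living mCherry-positive cells were sorted singly into 384-well plates and counted by SORT-seq, a plate form of CEL-Seq2 that counts transcripts by molecular identifiers at their 3' ends. Wells with 1000 or more gene transcripts, ERCC spike-ins not counted, were kept: 352 at 2 dpi, and 266 and 196 in replicates 1 and 2 of 1 dpi, together 814 of the 1659 such wells in the 6 libraries of the series. The other libraries came from 3 dpi (2 libraries, larvae 7 days post fertilisation) and from whole uninjured larvae (1 library, 4 days post fertilisation), and they enter below through the shared estimate of spread and as side values.

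Macrophages reach a muscle wound within hours, clear dead fibres and debris through their lysosomes, and signal by cytokines and chemokines to other immune cells and to muscle stem cells. During repair the same wound usually passes from an inflammatory phase towards a phase of clearance and rebuilding, and neutrophils, the main granulocytes of the larva, enter and leave it in that time. Macrophages and dendritic cells can also display peptides on class II histocompatibility molecules, whose assembly needs the invariant chain CD74. The comparison asks which transcripts in the sorted cells separated the 2 days.

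Each kept well was thinned at random to 1000 transcripts, and the wells of a library were summed and expressed as CPM (a gene's count scaled to a fixed library total), so that every well has the same weight. A level in this unit is a share of transcripts: fewer cells that use a gene and less of its RNA per cell cannot be told apart in the sum, and for that reason the share of wells with at least 1 transcript of a gene is also given. Before thinning, the kept wells held 4457113 transcripts at 2 dpi against 1338463 and 1717814 at 1 dpi, with a median of 11132 per well at 2 dpi against 3398.5 and 8336. Transcripts of mCherry were found in 32.7% of 2 dpi wells and in 26.7% and 39.3% of 1 dpi wells. The macrophage marker list summed to 17656 CPM at 2 dpi against 20312 and 17577 CPM at 1 dpi, with 1 of its 41 members in the files at 0 at 2 dpi and 3 at 0 in both 1 dpi libraries. The granulocyte list summed to 11014 CPM against 7861 and 9684 CPM, so granulocyte markers were present among the sorted cells. With 1 library at 2 dpi, the day and whatever is particular to that library (its larvae, sort, plate or preparation) cannot be told apart. The lone library is assumed to vary like the replicated groups. Separate animals are not stated for replicates of a day, and p-values then describe only how far these libraries scatter, which can be technical scatter.

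Granulocyte wells were those in which npsn (ENSDARG00000010423, a neutrophil metalloprotease) and EPX (ENSDARG00000019521, a granulocyte peroxidase gene) together made up 0.2% or more of gene transcripts. At 2 dpi 64 of 352 wells met this rule, which is 18.2% (95% exact binomial interval 14.3% to 22.6%). At 1 dpi 23 of 266 wells met it in replicate 1, which is 8.65% (5.56% to 12.7%), and 17 of 196 in replicate 2, which is 8.67% (5.13% to 13.5%). The share was thus 9.52 percentage points higher at 2 dpi than the mean of the 1 dpi libraries, and the interval of 2 dpi lay above both 1 dpi intervals. These intervals cover counting error only. With 1 library against 2, a two-sided exact permutation test over libraries cannot go below p = 0.333, which is the value it gave. Few wells lay near the threshold: 4 at 2 dpi, and 3 and 1 at 1 dpi, held between 0.1% and 0.2%, and 2 at 2 dpi, and 1 and 0 at 1 dpi, held between 0.2% and 0.5%. Granulocyte wells had a median of 8642 transcripts at 2 dpi against 2205 and 4197 at 1 dpi, and the other wells 12403 against 3453 and 9006.

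Of 5555 genes tested in all kept wells with edgeR's quasi-likelihood test and Benjamini-Hochberg adjustment, 12 (0.216%) passed an adjusted p of 0.05: 11 were higher at 2 dpi (0.198%) and 1 was lower (0.018%). At an unadjusted p of 0.05, 483 genes (8.69%) passed. With RLE scaling in place of TMM 12 of 15 called genes were higher, and with library size alone 13 of 18 were, and all 12 genes were among them. Lying outside both 1 dpi libraries was common (3926 genes, 70.7%) and says little of a single gene: 2007 genes (36.1%) were above both and 1919 (34.5%) below both. At 2-fold or more beyond the nearer 1 dpi library, on a log2(CPM + 10) scale, 256 genes (4.61%) were above and 275 (4.95%) below. All 12 called genes lay outside both 1 dpi libraries, and all 12 were called again among 4876 genes tested without the granulocyte wells, where 27 genes (0.554%) passed. The 27 comprised 22 genes higher at 2 dpi (0.451%) and 5 lower (0.103%), against 428 genes (8.78%) at an unadjusted p of 0.05. The 2 fits can give a different p for the same ratio of a difference to its SE. Their p-values and counts of calls are therefore not on 1 scale, and 27 calls against 12 do not measure added change. Of the 12 called genes, 5 passed the filter on low counts, 35.7 CPM in at least 1 library, through the 2 dpi library alone, so they were tested only because they were high there. Among them are ENSDARG00000076430, slco2b1, dicp1.1 and hbae5, and with no filter on low counts all 12 were called again. Without granulocytes 3471 genes (71.2%) lay outside both 1 dpi libraries, with 245 (5.02%) above and 262 (5.37%) below by 2-fold or more. Beyond 2-fold the 2 settings shared most genes: of those tested in both, 185 of 219 above both 1 dpi libraries in all kept wells were also 2-fold above without granulocytes, and 218 of 257 below were also 2-fold below. The wells without granulocytes are a subset of all kept wells with the same thinned transcripts, so such overlap is largely built in.

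**Figure D1:**
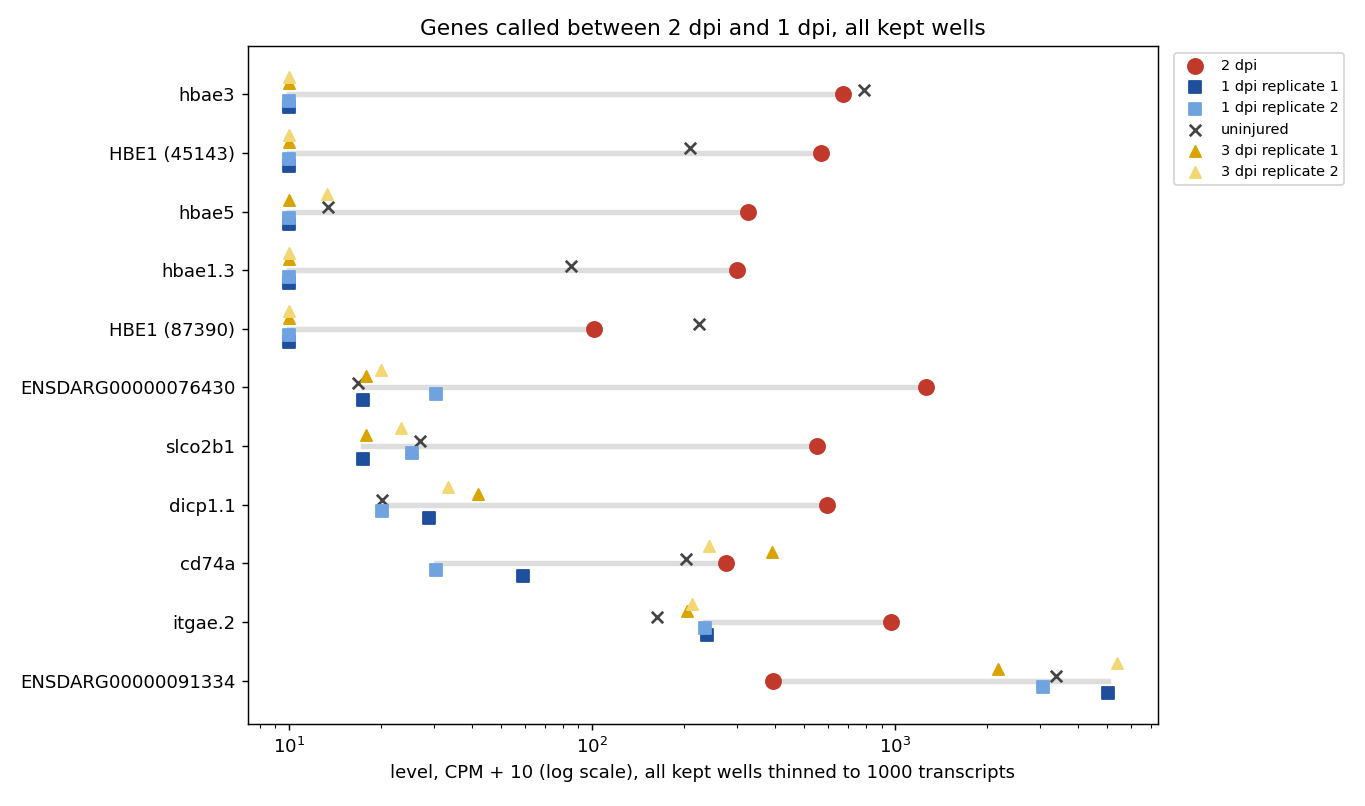
Level of 11 called genes in every library, as CPM + 10 on a log axis, all kept wells thinned to 1000 transcripts; circles are 2 dpi, squares the 1 dpi libraries, triangles 3 dpi and crosses uninjured larvae, and numbers in brackets are the ends of the Ensembl identifiers of the HBE1 genes. The 5 haemoglobin genes sit at 0 in both 1 dpi libraries, 5 other genes lie above both 1 dpi libraries, and ENSDARG00000091334 alone lies below them.

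Of the 11 genes that rose, 3 encode a transporter and receptors of the cell surface. The gene slco2b1 (ENSDARG00000054609), an organic anion transporter of the plasma membrane, had 543 CPM at 2 dpi against 7.52 and 15.3 CPM at 1 dpi. It rose 47.5-fold over the 1 dpi mean, a fitted log2 fold change of 5.61 (SE 0.61, edgeR adjusted p = 5.61e-06). That fold rests on 2 and 3 transcripts at 1 dpi, and its log2 value was 7.87 with another random seed for the thinning and 5.10 without thinning. The gene dicp1.1 (ENSDARG00000091993), of the fish family of diverse immunoglobulin-domain receptors, had 585 CPM against 18.8 and 10.2 CPM, a 40.4-fold rise (log2 5.27, SE 0.58, edgeR adjusted p = 6.69e-06). It rests on 5 and 2 transcripts at 1 dpi, with a log2 value of 6.12 with another seed and 5.88 without 1 dpi replicate 1. Neither came near its 2 dpi level elsewhere, since slco2b1 stood at 7.97 and 13.3 CPM at 3 dpi and 17.01 CPM in uninjured larvae, and dicp1.1 at 31.9, 23.3 and 10.2 CPM. The 2 dpi library alone let slco2b1 and dicp1.1 into the test, and their calls are not independent of that level. The integrin alpha chain gene itgae.2 (ENSDARG00000057787), whose mammalian counterpart CD103 anchors leukocytes to E-cadherin of epithelia, had 957 CPM at 2 dpi against 229 and 224 CPM at 1 dpi. It rose 4.22-fold (log2 2.11, SE 0.43, edgeR adjusted p = 0.0314) and stood at 195 and 203 CPM at 3 dpi and 153 CPM in uninjured larvae. The call of itgae.2 rests on both 1 dpi libraries: without replicate 1 its adjusted p was 0.137, and without replicate 2 it was 0.246.

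Another gene that rose, ENSDARG00000076430, has no symbol in the name table. It had 1256 CPM at 2 dpi against 7.52 and 20.4 CPM at 1 dpi, the highest 2 dpi level among the genes that rose. It rose 89.9-fold (log2 6.56, SE 0.56, edgeR adjusted p = 2.65e-07), with 7.97 and 10 CPM at 3 dpi and 6.80 CPM in uninjured larvae. The fold rests on 2 and 4 transcripts at 1 dpi: the log2 value was 7.24 without 1 dpi replicate 2, 7.67 with another random seed and 8.69 in wells of 1000 to 10000 transcripts. Only the 2 dpi library let this gene into the test, and its call is not independent of that level.

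These genes were high in many wells and not in a few. ENSDARG00000076430 was found after thinning in 24.3% of 2 dpi wells other than granulocytes against 0.823% and 2.24% of such 1 dpi wells. For slco2b1 the shares were 15.6% at 2 dpi against 0.823% and 1.68% at 1 dpi, and for dicp1.1 they were 18.8% against 0.823% and 0.559%. For itgae.2 the shares were 42.4% against 18.5% and 17.3%. Granulocyte wells showed the same order, at 26.6% of 2 dpi granulocyte wells against 0 of the 1 dpi ones for ENSDARG00000076430 and 23.4% against 0 for slco2b1. In those wells dicp1.1 was found in 21.9% at 2 dpi against 13.04% and 5.88% at 1 dpi, which is 3 and 1 wells at 1 dpi. For itgae.2 the shares were 35.9% against 21.7% and 11.8%, which is 5 and 2 wells at 1 dpi. The 2 dpi share was higher on both sides of the granulocyte rule, but for dicp1.1 and itgae.2 the granulocyte side rests on these few wells. In 3 dpi and uninjured libraries ENSDARG00000076430 was found in 0.80% and 1.00% and in 0.68% of wells.

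**Figure D2:**
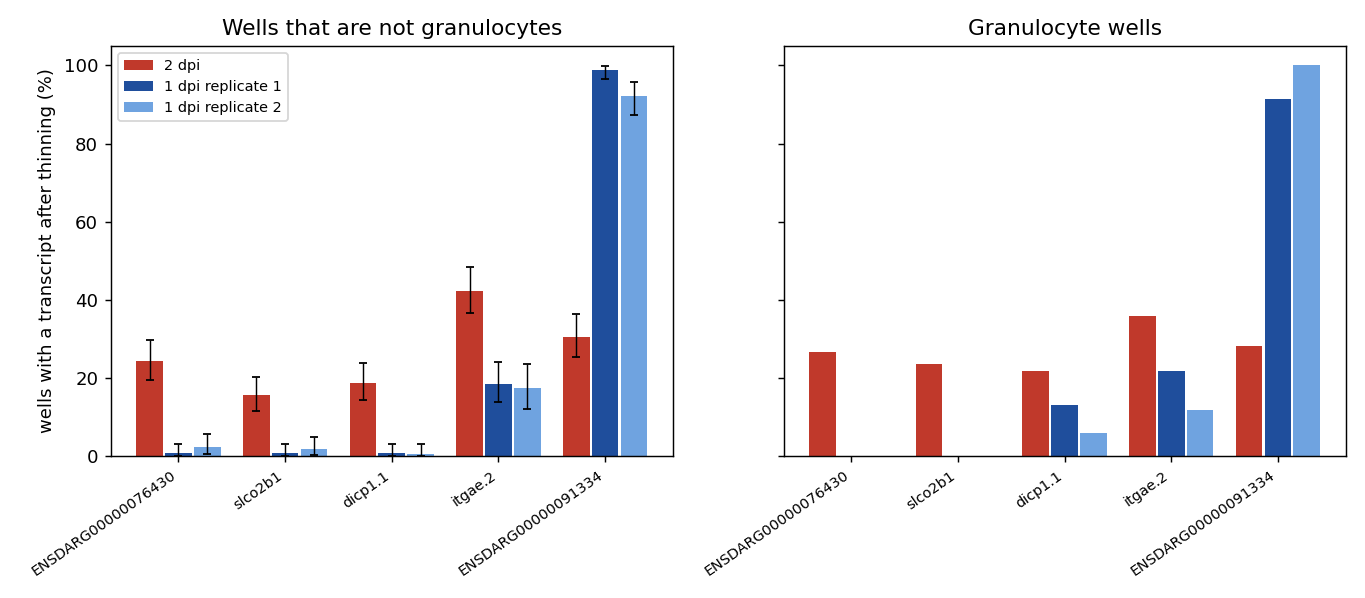
Percent of wells with at least 1 transcript after thinning to 1000, for 5 called genes, in wells that are not granulocytes (left, with 95% exact binomial intervals) and in granulocyte wells (right, no intervals drawn), at 2 dpi and in each 1 dpi library. ENSDARG00000091334 falls to 30.6% of other wells at 2 dpi against 98.8% and 92.2% at 1 dpi, and the 4 other genes are found in more wells at 2 dpi on both sides of the granulocyte rule.

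The single gene that fell was ENSDARG00000091334, which has no symbol in the name table. It had 384 CPM at 2 dpi against 5034 and 3071 CPM at 1 dpi, so the 1 dpi mean was 10.6-fold over 2 dpi (log2 fold change -3.38, SE 0.71, edgeR adjusted p = 0.0426). Its transcripts were found in 30.6% of 2 dpi wells other than granulocytes against 98.8% and 92.2% at 1 dpi, and in 28.1% of granulocyte wells against 91.3% and 100%. All other libraries resembled 1 dpi, with 2167 and 5363 CPM at 3 dpi and 3388 CPM in uninjured larvae, and with the gene found in 84.5%, 95% and 91.8% of wells. The adjusted p was 0.302 without 1 dpi replicate 1 and 0.0780 without replicate 2, while without granulocytes it was 0.000492 with both libraries, 0.692 without replicate 1 and 0.185 without replicate 2.

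The invariant chain genes of antigen presentation were higher at 2 dpi than at 1 dpi. cd74a (ENSDARG00000009087) had 267 CPM at 2 dpi against 48.9 and 20.4 CPM at 1 dpi, a 7.71-fold rise (log2 2.90, SE 0.56, edgeR adjusted p = 0.0182), and without 1 dpi replicate 2 its adjusted p was 0.146. Without replicate 1 its log2 fold change was 3.79. Its 2 dpi level was no peak, since 3 dpi libraries had 382 and 233 CPM and uninjured larvae 194 CPM. The second copy cd74b (ENSDARG00000036628) had 219 CPM against 48.9 and 35.7 CPM in all kept wells, where its adjusted p of 0.0767 missed the threshold. After thinning, granulocyte wells held no cd74a transcript at either day. With those wells removed cd74a stood at 326 CPM against 53.5 and 22.4 CPM (log2 3.08, SE 0.57, edgeR adjusted p = 2.86e-05) and cd74b at 264 CPM against 53.5 and 33.5 CPM (log2 2.61, SE 0.57, edgeR adjusted p = 0.00172). The transcripts were in a minority of wells: 12.15% of 2 dpi wells other than granulocytes held cd74a against 3.70% and 1.12% at 1 dpi, and 16.3% held cd74b against 3.70% and 2.23%. For cd74b the call without granulocytes was lost when either 1 dpi library was left out (adjusted p = 0.0956 without replicate 1 and 0.444 without replicate 2), and for cd74a when replicate 2 was (0.185).

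A further 5 genes that rose were haemoglobin genes, the globin chains of red blood cells, and they came from a handful of wells. hbae3 (ENSDARG00000079305) had 659 CPM, HBE1 (ENSDARG00000045143) 557 CPM, hbae5 (ENSDARG00000045142) 315 CPM, hbae1.3 (ENSDARG00000089124) 290 CPM and HBE1 (ENSDARG00000087390) 90.9 CPM at 2 dpi, against 0 in both 1 dpi libraries for each. Against a floor of 3 counts over the 1 dpi libraries together, they were at least 101.5-fold, 85.8-fold, 48.6-fold, 44.6-fold and 14.0-fold higher. For hbae5, which had 3.40 CPM in uninjured larvae and 0 and 3.33 CPM at 3 dpi, the 2 dpi library alone let it into the test, and its call is not independent of that level. In uninjured larvae hbae3 had 779 CPM and HBE1 (ENSDARG00000087390) 214 CPM, so their 2 dpi levels were no peak. HBE1 (ENSDARG00000045143) had 201 CPM and hbae1.3 74.8 CPM there, below their 2 dpi levels. At 2 dpi each of the 5 genes was found in only 3 to 7 of 352 wells after thinning. Before thinning, 31 wells (8.81%) held 2371 haemoglobin transcripts at 2 dpi, and 1 well held 33.7% of them, while 2 wells held 3 transcripts and 4 wells held 4 transcripts in the 1 dpi libraries. The erythroid marker list as a whole summed to 1457 CPM at 2 dpi against 45.1 and 30.6 CPM at 1 dpi, with 6 of its 16 members in the files at 0 at 2 dpi and 11 at 0 in both 1 dpi libraries. With the wells left out in which haemoglobin exceeded 1% of transcripts, 3 at 2 dpi and 4 in the uninjured library, a setting chosen after these values were seen, 9 genes were called and hbae3 no longer was (adjusted p = 0.781), while the other 4 haemoglobin genes no longer passed the filter on low counts. Without the uninjured library, where 104 of 294 wells held haemoglobin, the adjusted p of HBE1 (ENSDARG00000087390) was 0.107. Reads of such near-identical globin genes can fall on more than 1 copy, so the split between them is uncertain.

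With the granulocyte wells removed 15 further genes passed the threshold, of which cd74b is given above. selenop (ENSDARG00000093549), the selenium carrier selenoprotein P, had 1493 CPM at 2 dpi against 420 and 380 CPM at 1 dpi (log2 1.96, SE 0.51, edgeR adjusted p = 0.027), and 53.1% of 2 dpi wells held it against 27.6% and 20.7%. In all kept wells its log2 value was 1.78 with a smaller SE of 0.45. The edgeR unadjusted p was nevertheless larger there, at 7.2e-04 against 1.4e-04 without granulocytes. A call made only without granulocytes is thus not by itself a clearer difference. LXN (ENSDARG00000043102), the carboxypeptidase inhibitor latexin, had 201 CPM against 37.0 and 33.5 CPM (log2 2.54, SE 0.60, edgeR adjusted p = 0.0071). mrtfab (ENSDARG00000076229), a coactivator of serum response factor that responds to actin assembly, had 149 CPM against 41.2 and 11.2 CPM (log2 2.45, SE 0.64, edgeR adjusted p = 0.0267), and bcl2l10 (ENSDARG00000026766), a BCL2-family regulator of cell death, had 149 CPM against 24.7 and 22.4 CPM (log2 2.69, SE 0.67, edgeR adjusted p = 0.0153). For mrtfab the log2 value was 3.83 without 1 dpi replicate 1 and 1.83 without replicate 2, and with another random seed its adjusted p was 0.0615. For bcl2l10 it was 1.34 with another random seed (edgeR adjusted p = 0.556) and 0.98 without thinning (edgeR adjusted p = 1.00). The haem synthesis gene alas2 (ENSDARG00000038643), a red-cell enzyme, rose with 101 CPM against 0 and 5.59 CPM (edgeR adjusted p = 0.0206) but was found in 1.39% of 2 dpi wells only, and its adjusted p was 0.122 without the uninjured library and 0.139 with another random seed. ENSDARG00000044212 had 142 CPM against 0 in both 1 dpi libraries, at least 18.8-fold over the 3-count floor in all kept wells, in 2.43% of wells. Without the haemoglobin-rich wells its adjusted p was 0.3503.

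On the falling side without granulocytes, si:dkey-119g10.4 (ENSDARG00000095801) had 264 CPM at 2 dpi against 1477 and 1553 CPM at 1 dpi (log2 -2.46, SE 0.59, edgeR adjusted p = 0.00939). It was found in 17.4% of 2 dpi wells against 37.0% and 34.1%, and in all kept wells it stood at 203 and 137 CPM at 3 dpi. VPS25 (ENSDARG00000059079), of the ESCRT-II complex that sorts membrane proteins for lysosomal breakdown, had 13.9 CPM against 119 and 156 CPM (log2 -3.19, SE 0.82, edgeR adjusted p = 0.0225), but its log2 value was -1.72 with another random seed (adjusted p = 0.440) and -1.13 without thinning (adjusted p = 1.00). FKBP2 (ENSDARG00000044540), a prolyl isomerase of the endoplasmic reticulum, had 17.4 CPM against 173 and 117 CPM (log2 -2.99, SE 0.79, edgeR adjusted p = 0.0287), but -2.11 with another random seed (adjusted p = 0.196) and -1.72 without thinning (adjusted p = 1.00). ENSDARG00000088673 had 10.4 CPM against 98.8 and 251 CPM (log2 -3.90, SE 0.82, edgeR adjusted p = 0.000728), with a log2 value of -3.20 without 1 dpi replicate 2 and -2.89 with another random seed. In all kept wells VPS25 and FKBP2 had 6 transcripts each at 2 dpi and ENSDARG00000088673 had 5. The sizes of these falls thus rest on few transcripts at 2 dpi. With another random seed for the thinning 8 of the 15 calls held, and without thinning 2 held, those of cd74b and ENSDARG00000088673. These 15 calls needed both 1 dpi libraries, except those of ENSDARG00000044212 and ENSDARG00000088673. The call of ENSDARG00000044212 held without replicate 1 and also without replicate 2. That of ENSDARG00000088673 held without replicate 1 but was lost without replicate 2. Of all 27 calls, 11 held without replicate 1 and 9 without replicate 2. Without replicate 1 and without replicate 2, the adjusted p was 0.708 and 0.914 for selenop, 0.431 and 0.478 for LXN, and 0.266 and 0.128 for si:dkey-119g10.4, and it was 0.287 for ENSDARG00000088673 without replicate 2.

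The genes below both 1 dpi libraries that ranked next missed the threshold, and their values are given as a description. PSMC6 (ENSDARG00000037038), an ATPase of the proteasome's regulatory particle, had 68.2 CPM at 2 dpi against 342 and 347 CPM at 1 dpi (edgeR adjusted p = 0.0897). HSP90B1 (ENSDARG00000003570), the Hsp90 chaperone of the endoplasmic reticulum, had 76.7 CPM against 323 and 352 CPM, and PCNA (ENSDARG00000054155), the sliding clamp of DNA replication, had 90.9 CPM against 387 and 378 CPM (edgeR adjusted p = 0.124 for each). KRTCAP2 (ENSDARG00000070386), of the complex that attaches sugar chains to secretory proteins, had 45.5 CPM against 214 and 184 CPM (edgeR adjusted p = 0.276). The ATP synthase subunit genes atp5mj (ENSDARG00000092873) and atp5md (ENSDARG00000096003) had 108 CPM against 380 and 429 CPM, and 48.3 CPM against 181 and 255 CPM (edgeR adjusted p = 0.212 for each). In each of these genes 2 dpi lay more than 2-fold below both 1 dpi libraries. Further genes of that ranking were si:dkey-6n3.3 at 418 CPM against 1865 and 2071 CPM (edgeR adjusted p = 0.119) and si:busm1-57f23.1 at 45.5 CPM against 173 and 224 CPM (0.322).

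Several whole lists lay below 1 dpi as well, although no member of them was called in all kept wells or without granulocytes. Against all 5555 tested genes, with a median log2 fold change of 0.00, the 27 tested proteasome genes had a median of -1.09: 22 lay below both 1 dpi libraries (34.5% of all tested genes did) and 0 above (36.1%), and 6 lay 2-fold or more below (4.95%). Their summed level was 1676 CPM at 2 dpi against 3402 and 3628 CPM at 1 dpi. At an unadjusted p of 0.05 in edgeR 8 of them were lower, against 222 of all 5555 tested genes (4.0%) lower and 261 (4.7%) higher, and DESeq2 called 0 of them. By mean level the leading members besides PSMC6 were PSMB7 (ENSDARG00000037962) at 131 CPM against 293 and 245 CPM, PSMA8 (ENSDARG00000010965) at 85.2 CPM against 203 and 255 CPM, both of the catalytic core barrel, and PSMB2 (ENSDARG00000031511), of the same barrel, at 131 CPM against 147 and 214 CPM.

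The list of endoplasmic reticulum folding and secretion genes had 34 tested members with a median of -1.20. Of these, 29 lay below both 1 dpi libraries (34.5% of all tested genes did), 4 lay above (36.1%) and 14 lay 2-fold or more below (4.95%). The sum was 4122 CPM at 2 dpi against 6094 and 6490 CPM at 1 dpi. At an unadjusted p of 0.05 in edgeR 11 members were lower (4.0% of all tested genes were), and DESeq2 called 0. Its most abundant members did not all share that direction. The stress-response factor genes atf4b (ENSDARG00000038141) and DDIT3 (ENSDARG00000059836) lay above, at 847 CPM against 477 and 495 CPM and at 372 CPM against 305 and 224 CPM. The translocation genes SSR2 (ENSDARG00000005230) and SEC61A1 (ENSDARG00000021669) stood at 253 CPM against 342 and 454 CPM and at 301 CPM against 241 and 459 CPM.

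The 59 tested genes of the respiratory chain and ATP synthase had a median of -0.83. Among them 52 lay below both 1 dpi libraries (34.5% of all tested genes did), 1 lay above (36.1%) and 7 lay 2-fold or more below (4.95%). The list summed to 7881 CPM at 2 dpi against 15143 and 12673 CPM at 1 dpi. In it 8 members were lower at an unadjusted p of 0.05 in edgeR (4.0% of all tested genes were), with 0 called by DESeq2. The 4 most abundant were ATP5F1B (ENSDARG00000070083, ATP synthase) at 682 CPM against 1023 and 959 CPM, atp5mc3b (ENSDARG00000009447, ATP synthase) at 477 CPM against 880 and 791 CPM, COX4I1 (ENSDARG00000032970, cytochrome c oxidase) at 560 CPM against 722 and 781 CPM, and cycsb (ENSDARG00000044562, cytochrome c) at 472 CPM against 534 and 663 CPM. All 4 lay below both 1 dpi libraries, each with a smaller fitted difference than the list's median.

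The cell cycle list had 16 tested members and a median of -1.49. In this list 13 lay below both 1 dpi libraries (34.5% of all tested genes did), 0 above (36.1%) and 8 at 2-fold or more below (4.95%). Besides PCNA, hmgb2b (ENSDARG00000053990), a chromatin protein of dividing cells, had 59.7 CPM at 2 dpi against 139 and 179 CPM at 1 dpi, and RRM1 (ENSDARG00000014017), which makes deoxynucleotides, had 28.4 CPM against 48.9 and 51.0 CPM. The tubulin gene tuba8l4 (ENSDARG00000006260), the list's most abundant member, lay between the 1 dpi libraries at 778 CPM against 1135 and 566 CPM. It supplied most of the list's sum of 1293 CPM at 2 dpi. RRM1, the least abundant of the 4 leading members, had a mean of 39.2 CPM over the days, and the other tested members had less. The list's median and positions thus rest largely on few transcripts. At an unadjusted p of 0.05 in edgeR 2 members were lower (4.0% of all tested genes were), and DESeq2 called 0. The 38 tested lysosome genes had a smaller median of -0.51, with 29 below both and 4 above, and summed to 17869 CPM against 28639 and 26791 CPM. CD63 (ENSDARG00000025147), a lysosomal membrane protein, had 2156 CPM against 4857 and 3026 CPM, the cathepsin gene ctss2.1 (ENSDARG00000074656) 1236 CPM against 3406 and 2179 CPM, the proton pump gene ATP6V1G1 (ENSDARG00000022315) 1244 CPM against 2549 and 1801 CPM, and PSAP (ENSDARG00000013968), a precursor of lipid-degrading cofactors, 1795 CPM against 1887 and 1449 CPM. Of the lysosome genes 4 were lower and 1 was higher at an unadjusted p of 0.05 in edgeR, and DESeq2 called 0. The shares of all tested genes at that p were 4.0% lower and 4.7% higher.

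**Figure D3:**
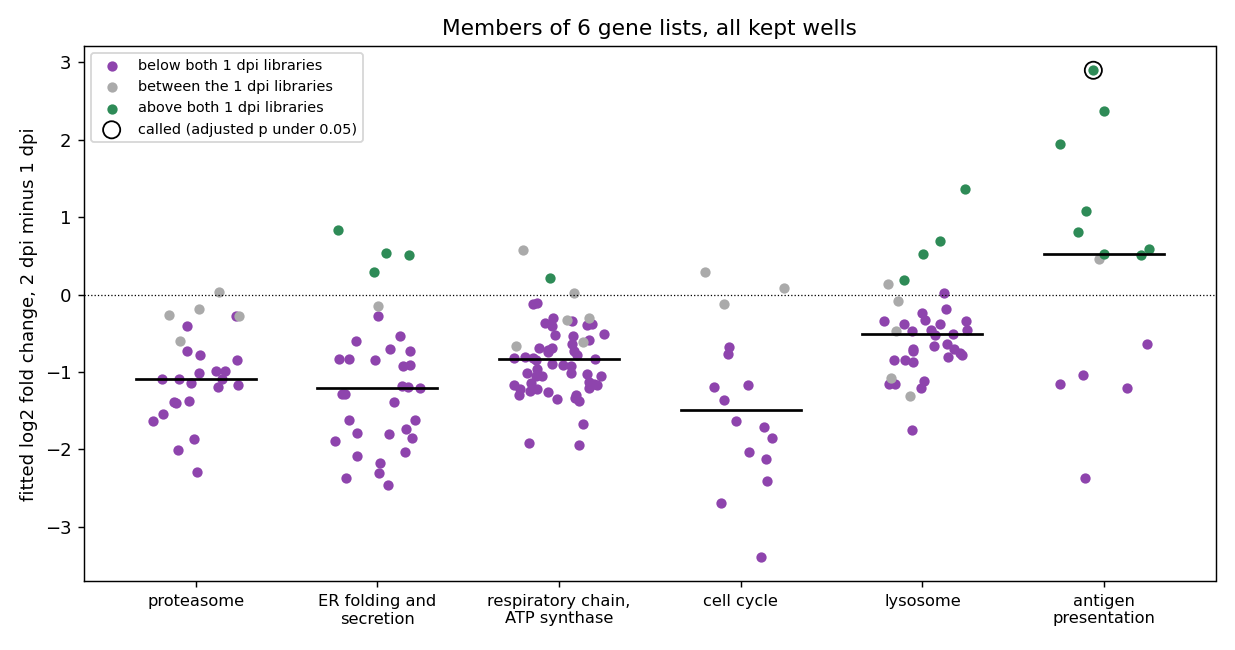
Fitted log2 fold change, 2 dpi minus 1 dpi, of every tested member of 6 gene lists in all kept wells; each point is a gene, coloured by whether its 2 dpi level lies below, between or above the 1 dpi libraries, bars are list medians, and a ring marks a called gene. In 5 lists most points lie below 0 without any ring, and in antigen presentation cd74a is ringed.

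In granulocyte wells, which were summed apart as a description, 4 of these lists lay closer between the days. There the proteasome genes summed to 1031 CPM at 2 dpi against 1087 and 1588 CPM at 1 dpi, the endoplasmic reticulum genes to 3047 CPM against 2913 and 2765 CPM, the respiratory genes to 5031 CPM against 7913 and 4882 CPM, and the lysosome genes to 7656 CPM against 8304 and 7471 CPM. The proteasome sums rest on only 66 transcripts at 2 dpi against 25 and 27 at 1 dpi. Those of the endoplasmic reticulum rest on 195 against 67 and 47. The cell cycle genes summed there to 953 CPM, from 61 transcripts, against 2826 and 765 CPM, from 65 and 13, a wider gap to replicate 1 than in all kept wells (1293 CPM against 2402 and 2143 CPM). With granulocytes removed the list medians were -0.99 for the proteasome, -1.08 for endoplasmic reticulum folding, -0.80 for the respiratory chain, -1.49 for the cell cycle and -0.43 for the lysosome. The 3 dpi libraries summed lower still for the proteasome (1004 and 987 CPM), the endoplasmic reticulum (3641 and 3287 CPM), the respiratory chain (7279 and 5063 CPM) and the lysosome (12255 and 10193 CPM). In uninjured larvae these sums were 1714, 5224, 10071 and 14680 CPM. The cell cycle sum was also lower at 3 dpi than at 2 dpi (1147 and 930 CPM), and it was 1707 CPM in uninjured larvae. Well depth differed between the days, as given above, and thinning equalises the number of transcripts but not the cells behind them.

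**Figure D4:**
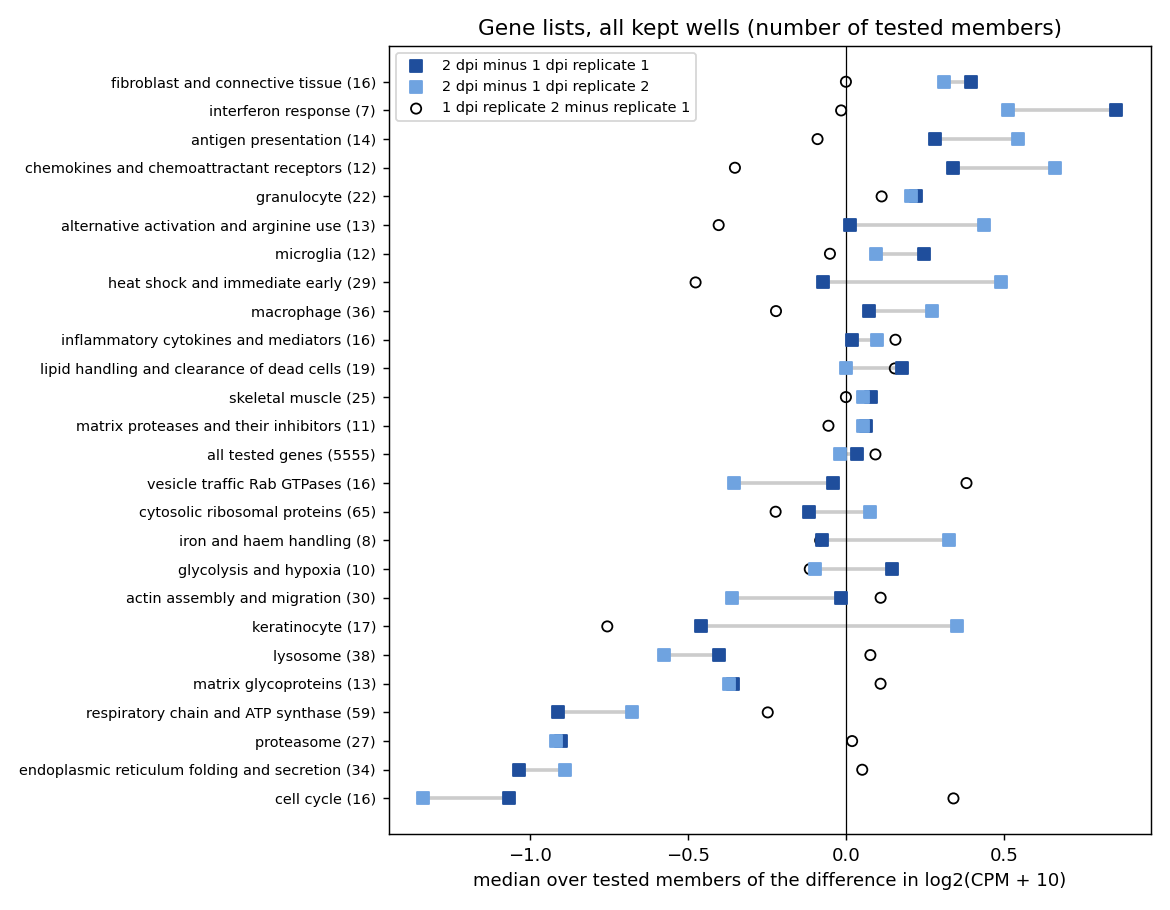
Median over the tested members of each gene list with 7 or more of them, of the difference in log2(CPM + 10) between 2 dpi and each 1 dpi library (squares). The difference between the 1 dpi libraries is shown as open circles, and the number of tested members is in brackets. Lists with fewer tested members, the erythroid list among them, are not drawn. For proteasome, endoplasmic reticulum, respiratory chain and cell cycle genes both squares lie between -1.34 and -0.68, and for all 5555 tested genes they lie near 0.

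The antigen presentation list had a median of 0.52, with 8 of 14 tested members above both 1 dpi libraries and 5 below. cd74a was the called member, and without granulocytes cd74b was called too. The activation marker gene cd83 (ENSDARG00000079553) had 1537 CPM at 2 dpi against 1049 and 1041 CPM at 1 dpi, and ctss2.2 (ENSDARG00000013771), a protease that trims the invariant chain in mammals, 744 CPM against 665 and 378 CPM. The lysosomal protease gene LGMN (ENSDARG00000039150) lay below, at 557 CPM against 782 and 1005 CPM, as did ctss2.1. The list summed to 6310 CPM against 7222 and 6092 CPM, with the 2 dpi total between the 1 dpi libraries. The 36 tested macrophage markers had a median of 0.14, with 18 above both 1 dpi libraries and 10 below, against 36.1% and 34.5% of all tested genes. Of these NCF1 (ENSDARG00000033735), of the phagocyte oxidase, had 1429 CPM against 789 and 995 CPM, and tspan36 (ENSDARG00000024540) 2080 CPM against 1763 and 1633 CPM, both uncalled. NCF1 is on the granulocyte list as well, and its level here mixes granulocyte wells, whose share was higher at 2 dpi, with the others.

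No cytokine, chemokine or interferon-response gene on the lists was called. As background to the counts below, 36.1% of all tested genes lay above both 1 dpi libraries and 34.5% below. Of 12 tested chemokine and chemoattractant receptor genes 6 lay above both 1 dpi libraries and 2 below (median 0.42), 0 were called by edgeR or DESeq2, and 0 passed an unadjusted p of 0.05. The chemokine gene ccl35.2 (ENSDARG00000070378) had 2389 CPM at 2 dpi against 1233 and 1546 CPM at 1 dpi (edgeR adjusted p = 0.657), and ccl34b.1 (ENSDARG00000093608) 597 CPM against 477 and 337 CPM. The receptor genes CMKLR1 (ENSDARG00000090890) and cxcr3.3 (ENSDARG00000070669) stood at 844 CPM against 654 and 515 CPM and at 321 CPM against 195 and 327 CPM. Of 16 inflammatory genes 7 lay above and 5 below (median 0.05), again with 0 called by edgeR or DESeq2 and 0 at an unadjusted p of 0.05. The most abundant of them, nfkbiaa (ENSDARG00000005481), the NF-kappaB inhibitor that NF-kappaB itself induces, had 2832 CPM against 1711 and 1612 CPM (edgeR adjusted p = 0.673). Of 7 interferon-response genes 5 lay above and 1 below (median 0.87), 0 were called by edgeR or DESeq2, and 1 was higher at an unadjusted p of 0.05 in edgeR.

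None of the genes often used to follow wound macrophages was called by edgeR between the days. tnfa (ENSDARG00000009511), a central inflammatory cytokine, had 39.8 CPM at 2 dpi against 63.9 and 86.7 CPM at 1 dpi, a fitted log2 fold change of -0.86 (SE 0.73, edgeR adjusted p = 0.759). The transgene's own gene MPEG1 (ENSDARG00000055290), a pore-forming protein of macrophages, had 335 CPM against 391 and 551 CPM, and the copy ENSDARG00000043093 had 34.1 CPM against 11.3 and 56.1 CPM, with reads of the copies possibly shared. The scavenger receptor gene marco (ENSDARG00000059294) stood at 267 CPM against 327 and 245 CPM. CTSK (ENSDARG00000040251), a collagen-degrading cathepsin, had 1091 CPM at 2 dpi against 1169 and 1939 CPM at 1 dpi, while the 3 dpi libraries had 131 and 96.7 CPM. ARG2 (ENSDARG00000039269), an arginase, had 48.3 CPM against 63.9 and 51.0 CPM. The NAMPT gene (ENSDARG00000030598), for an enzyme of NAD synthesis, had 179 CPM against 199 and 128 CPM, and nampt2 (ENSDARG00000027183) 5.68 CPM against 7.52 and 5.10 CPM. Of these genes tnfa, MPEG1 (ENSDARG00000055290), CTSK and ARG2 lay below both 1 dpi libraries and the others between them; nampt2 was below the filter on low counts, and for the others the adjusted p in edgeR was 0.759 or more.

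Genes abundant in granulocyte wells were measured apart in those wells and in the rest, since the share of such wells was higher at 2 dpi. npsn and EPX, which define the wells, stood at 1330 CPM against 598 and 653 CPM and at 1134 CPM against 492 and 1388 CPM in all kept wells. The metalloprotease genes MMP9 (ENSDARG00000042816) and mmp13a (ENSDARG00000012395) had 2159 CPM at 2 dpi against 1342 and 1857 CPM at 1 dpi, and 1645 CPM against 1470 and 1474 CPM, in all kept wells. Within granulocyte wells they lay below both 1 dpi libraries, at 10688 CPM against 12391 and 18706 CPM and at 8266 CPM against 13043 and 16118 CPM. Outside them mmp13a had 174 CPM against 374 and 83.8 CPM. The cytokine gene tnfb (ENSDARG00000013598) had 1702 CPM against 1060 and 1454 CPM in all kept wells. It had 5609 CPM against 2565 and 3353 CPM within granulocyte wells, and 833 CPM against 918 and 1274 CPM without them. The 2 dpi level of tnfb thus lay above both 1 dpi libraries in granulocyte wells and below both in the rest, a contrast that was not tested.

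**Figure D5:**
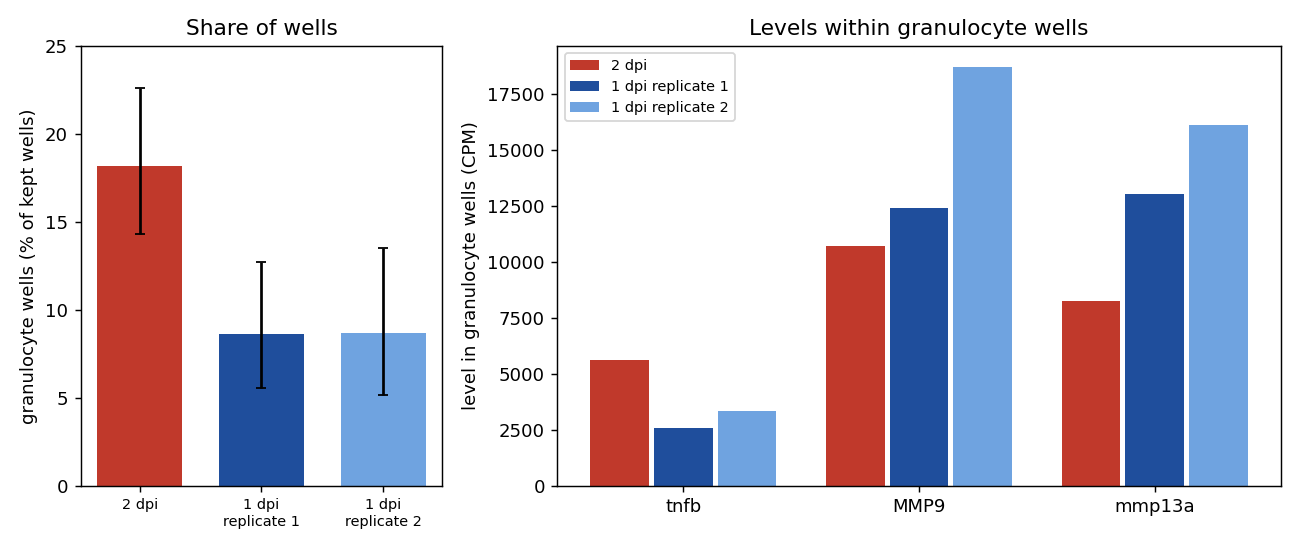
Left, percent of kept wells that are granulocytes at 2 dpi and in each 1 dpi library, with 95% exact binomial intervals; right, level of tnfb, MMP9 and mmp13a within the granulocyte wells in CPM, 1 value per library and no error bars. The 2 dpi bar stands at 18.2% against 8.65% and 8.67%, tnfb is higher at 2 dpi, and MMP9 and mmp13a are lower.

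Within the 64, 23 and 17 granulocyte wells, 146 genes had a mean of 1000 CPM or more, a minimum chosen after the data were seen. Of these, 38 lay above and 50 below both 1 dpi libraries, 1 of them 2-fold or more above and 4 2-fold or more below. The gene above was HSP90AB1 (ENSDARG00000029150), a cytosolic chaperone, with 5406 CPM at 2 dpi against 2652 and 2529 CPM at 1 dpi. The other wells had 5597 CPM against 2922 and 3017 CPM for it. Among the 4 below were tmsb4x (ENSDARG00000077777), an actin-binding peptide, with 15188 CPM against 30826 and 43118 CPM, and si:dkey-151g10.6 with 2531 CPM against 6783 and 6824 CPM. In the other wells tmsb4x had 10573 CPM against 19436 and 23296 CPM, and si:dkey-151g10.6 had 4340 CPM against 7782 and 8156 CPM. ENSDARG00000091334 was the third, at 375 CPM against 4913 and 4000 CPM, and ENSDARG00000003041 the fourth, at 1078 CPM against 2652 and 3412 CPM.

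Markers of other tissues were detected at both days. Skeletal muscle markers summed to 716 CPM at 2 dpi against 414 and 367 CPM at 1 dpi, with 22 of 39 at 0 at 2 dpi and 21 at 0 in both 1 dpi libraries. Of 25 tested members 12 (48%) lay above both, against 36.1% of all tested genes. Fibroblast markers summed to 196 CPM against 75.2 and 81.6 CPM, with 11 of 31 at 0 at 2 dpi and 17 at 0 at 1 dpi, and 13 of 16 tested members (81.25%) lay above both. The most abundant tested fibroblast member, COL1A1 (ENSDARG00000035809), had a mean of 22.1 CPM over the days. The positions of these members thus rest on few transcripts. Keratinocyte markers summed to 2449 CPM against 2237 and 1827 CPM. Wells with 3% or more of such transcripts numbered 1 at 2 dpi and 2 and 0 at 1 dpi. The part of these markers in the called genes was not tested beyond leaving those wells out of all libraries, after which 14 genes were called, including all 12. Most wells left out, 90, were of the uninjured library, and the 3 compared libraries hardly changed. Keeping the 12 calls was thus largely built in, and marker transcripts in the remaining wells were not addressed.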

How the data were processed

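The deposited values are expected counts per gene and well, the authors' transcript numbers corrected for identifier collisions, as the values themselves show. Per the submitters' processing notes, reads were handled with BWA and Zv9; counter, annotation version and identifier filter: not given in the sources used here. Gene names came from a table matching 19001 of 25130 identifiers (75.6%). Counts were rounded, wells with 1000 or more transcripts without spike-ins kept, each thinned to 1000 (seed 1) and summed per library. All 6 libraries entered 1 edgeR 4.0.16 fit (R 4.3.3; TMM, filterByExpr, robust quasi-likelihood, Benjamini-Hochberg), with 2 residual degrees of freedom and a biological coefficient of variation of 33.1% in all kept wells. Scripts were tested on simulated data. DESeq2 1.42.0, other scalings, filters, well depths, library leave-outs and a replicate block were alternatives. Shares have exact binomial intervals. The 31 gene lists, the comparison and the tests were chosen with earlier results of these data known. Named genes were, per direction, up to 12 (8 without granulocytes) with a mean of 100 CPM or more, outside both 1 dpi libraries, ranked by fold to the nearer one, called first. To these were added, for each list described, called members and up to 4 of the highest mean, and a fixed set (npsn, EPX, MPEG1 copies, marco, tnfa, tnfb, mmp13a, MMP9, CTSK, ARG2, nampt copies). Well names are plate positions shared by all plates, so no barcode overlap can be counted. A single called gene is not reported here.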

Additional observations from a re-analysis of the deposited data

How the results depend on the processing

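Beside the 12 main calls in all kept wells, edgeR called 21 genes without thinning, and 10 of the 12 were among them. It called 22 genes with wells of 2000 or more thinned to 2000, and 81 with wells of 1000 to 10000 only. The fit of the 3 libraries of 2 dpi and 1 dpi called 35, and each of these last settings kept all 12. Leaving out 1 library gave 11 to 24 calls, with 19 without 3 dpi replicate 1 and 24 without 3 dpi replicate 2. Of 27 calls without granulocytes, DESeq2 called 9, no filter on low counts 17, wells of 1000 to 10000 51 and the 3 libraries alone 54, while leaving out 1 library gave 9 to 49: 11 without 1 dpi replicate 1, 9 without 1 dpi replicate 2, 43 and 49 without 3 dpi replicates 1 and 2. With the replicate number as a block, 269 and 228 genes were called, and 2 dpi and 1 dpi share 1 number. Over the tested genes, the difference between replicates 1 and 2 at 1 dpi correlated at 0.253 with that at 3 dpi. The numbers were not taken to pair samples. DESeq2 called 10 genes in all kept wells, 8 of the 12, and those it left included cd74a, itgae.2 and HBE1 (ENSDARG00000087390). The call of itgae.2 was also lost without thinning (adjusted p = 1.00) and with another seed (0.131), and that of ENSDARG00000091334 without thinning (0.0598). The calls of ENSDARG00000076430, slco2b1 and dicp1.1 held in all 17 alternatives. Each alternative used the same 2 dpi library, through which alone these genes passed the main filter on low counts. The alternatives therefore cannot test whether that library is typical of 2 dpi. Genes outside both 1 dpi libraries numbered 9436 without thinning, 531 at 2-fold and 974 at a mean of 100 CPM or more in all kept wells, and 9255, 507 and 985 without granulocytes. The medians of the proteasome, endoplasmic reticulum, respiratory chain, cell cycle and lysosome lists stayed negative in all alternatives run. Reversed log2 fold changes were all of uncalled genes: marco and tuba8l4 0.072 and 0.036 without a low-count filter, tuba8l4 0.0078 without thinning, ARG2 and COX4I1 0.079 and 0.053 with another seed, marco and ARG2 0.010 and 0.12 at 2000, MPEG1 (ENSDARG00000043093) and ARG2 -1.13 and 0.26 at 1000 to 10000, marco 0.027 in the 3 libraries, and NAMPT, PSAP and SEC61A1 -0.038, -0.20 and 0.013 with the block. Over the fits that left out 1 library, EPX ranged between -0.18 and 1.14, MPEG1 (ENSDARG00000043093) between -0.61 and 1.497, marco between -0.36 and 0.23, ARG2 between -0.46 and 0.028, tuba8l4 between -0.61 and 0.57, NAMPT between -0.22 and 0.59, PSAP between -0.14 and 0.42 and SEC61A1 between -0.50 and 0.26. The causes were not tested. Depth limits genes near 1 transcript per 1000 per well.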
